A study of Mus musculus with 6 samples.

Results

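Enriched regions of m6A-marked RNA were unusually crowded in 4 stretches of the mouse autosomes, each 1 Mb long, and these stretches are described here. They lie on chromosome 7 from 134000001 to 135000000, on chromosome 10 from 79000001 to 80000000 (the lower bin) and from 80000001 to 81000000 (the upper bin), and on chromosome 13 from 67000001 to 68000000, in mm9. They were chosen by their number of regions among 1-Mb bins, after a still denser bin on chromosome 18 had been set aside. Peaks starting in a bin were taken, and peaks that touched were joined into 1 enriched region. This gave 286 regions from 532 peaks, out of 23446 regions and 42886 peaks in the complete list. All 286 regions had both ends on a grid of 25 bases, and 0 of them crossed the end of a bin.

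The RNA came from adult C57BL/6 mice, described as wild-type littermates, with midbrain and striatum given as 1 neural tissue. Methylated RNA immunoprecipitation sequencing (MeRIP-seq) was done on RNA depleted of ribosomal RNA, in 2 rounds of pull-down with an m6A antibody, and 3 MeRIP and 3 input libraries were made. All 6 libraries share the genotype, and the labels name no treatment. One list of positions serves all 6 libraries. It has no height, strand, gene name or value per library, so depth is unknown here, no replicate error can be given, and the tissue could not be checked against marker genes.

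N6-methyladenosine (m6A) is placed on adenosines of messenger and long noncoding RNA by a methyltransferase complex that contains METTL3 and METTL14. It is removed by demethylases, of which FTO is one, and read by proteins such as the YTH family, which influence the decay and translation of the marked RNA. In many transcripts the mark gathers near the stop codon, in long internal exons and in the 3' untranslated region. Where an enriched region reflects the mark, it therefore needs an RNA that is both expressed and marked. A crowded stretch of genome can hold many genes, genes with many regions each, or both. No annotation of mm9 was used here, so regions were not placed on genes, exons or untranslated regions, and no sequence is shown.

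The description used to choose the bins puts the chromosome 13 bin in a cluster of zinc finger genes. Many proteins of this family join a KRAB domain, which recruits a corepressor, to a row of DNA-binding zinc fingers, and a single large terminal exon often encodes the finger array. A RefSeq gene table of another build, GRCm38, was read for names and neighbours only. It lists 829 protein-coding genes on chromosome 13, of which 44 have a symbol of the zinc finger list. Of these, 25 follow each other without another protein-coding gene between them, from Zfp712 to Zfp273, the longest such run in the table. Whether the 64 regions of the chromosome 13 bin lie in this run was not tested.

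The region count is the value that chose the bins, so it is given as a description. There were 79 regions in the chromosome 7 bin, 72 in the lower and 71 in the upper chromosome 10 bin, and 64 in the chromosome 13 bin. The other 2411 autosomal bins had a median of 6 regions (interquartile range 2 to 13), and 400 of them (16.6%) held none. The choice fell between 64 regions in its lowest member and 61 in the next bin, on chromosome 2 from 25000001, so its edge is 3 regions wide. Below that came 60 regions on chromosome 3 from 88000001 and 59 each on chromosome 7 from 30000001, chromosome 9 from 108000001 and chromosome 15 from 76000001. The 4 bins made up 0.166% of autosomal bins and held 1.26% of autosomal regions.

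**Figure D1:**
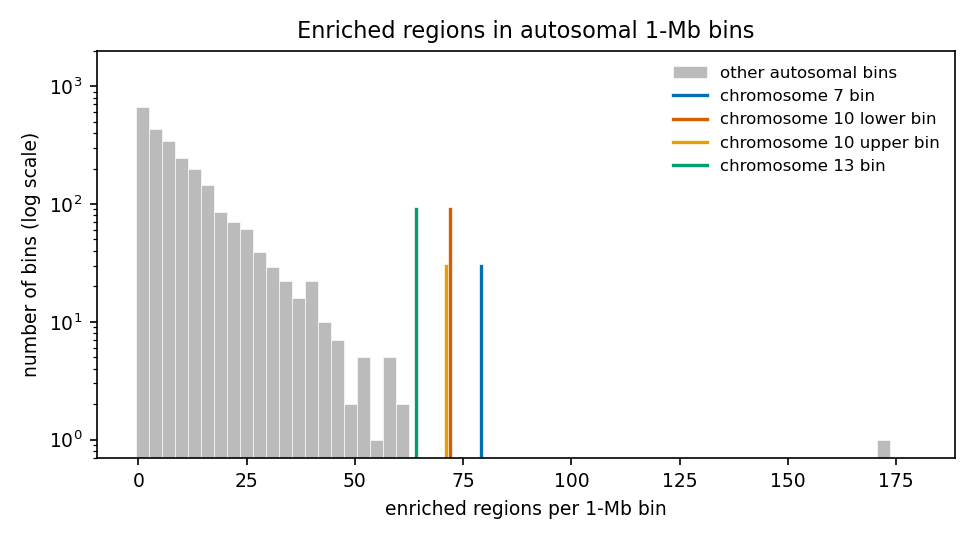
Enriched regions per 1-Mb autosomal bin (x axis) against the number of bins (y axis, log scale). Grey bars, 3 counts wide, are the 2411 other bins, and coloured lines mark the 4 chosen bins at 64, 71, 72 and 79 regions, with line heights that carry no value. The single grey bar at the right is the chromosome 18 bin with 173 regions.

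The surroundings of the bins differed. On chromosome 13 the bin just before held 1 region and the one just after held 9, against 64 between them. On chromosome 10 the bins on either side of the pair held 9 and 11 regions, so the pair also stood alone. On chromosome 7 the neighbours held 25 and 32 regions, both above the upper quartile of 13 of the other bins, so the dense bin there was the peak of a broader rise. The pair on chromosome 10 held 143 regions, 13.2% of the 1087 regions of that chromosome. Among neighbouring pairs of autosomal bins, it ranked after the pairs on chromosome 18 with 217 and 191 regions and before a pair on chromosome 7 with 111, which includes the chromosome 7 bin. The chromosome 7 bin held 4.74% of the regions of its chromosome and the chromosome 13 bin 6.90%.

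Bins of equal size start at arbitrary positions, and the counts moved when the borders moved by 500 kb. The stretch of chromosome 10 that takes the upper part of the lower bin and the lower part of the upper bin held 69 regions, close to either bin. The shifted stretches that overlap the chromosome 7 bin held 52 and 63 regions. Those that overlap the chromosome 13 bin held 19 and 45, since 45 of its 64 regions start in its upper part.

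Covered bases ordered the bins differently from counts. The upper chromosome 10 bin covered 23700 bases, the chromosome 7 bin 22100, the lower chromosome 10 bin 21625 and the chromosome 13 bin 16850. The median of the other bins was 1725 bases. Outside these 4, only the chromosome 18 bin covered more bases than the upper chromosome 10 bin. The chromosome 7 bin from 30000001, with 59 regions and therefore outside the choice, covered 23100 bases, more than 3 of the 4 chosen bins. The chromosome 13 bin, in contrast, was passed by 7 other bins. Even in the upper chromosome 10 bin the covered bases made up 2.37% of the megabase.

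Region width, which did not enter the choice, separated the upper chromosome 10 bin from the chromosome 13 bin. Median width was 275 bases in the upper chromosome 10 bin (interquartile range 200 to 412), 225 bases in the chromosome 7 bin (175 to 325), 200 bases in the lower chromosome 10 bin (150 to 325) and 175 bases in the chromosome 13 bin (144 to 325). Over the 22383 other autosomal regions the median was 225 bases (150 to 350). Medians of the 876 other bins with at least 10 regions had a middle range of 188 to 250 bases. The chromosome 7 bin and the lower chromosome 10 bin lay inside that range, the upper chromosome 10 bin above it and the chromosome 13 bin below it. Of those 876 bins, 92 had a higher median than the upper chromosome 10 bin and 80 a lower one than the chromosome 13 bin. Among the 46 other autosomal bins with at least 40 regions, called dense bins here, both values were at the ends of the range. There 0 had a higher median than the upper chromosome 10 bin and 2 an equal one, and 0 had a lower median than the chromosome 13 bin and 8 an equal one. The 4 bins pooled had the same median as the rest of the autosomes, 225 bases. With peaks within 100 bases joined, the median was 225 bases in the chromosome 13 bin and 200 in the lower chromosome 10 bin. It was then 250 bases in the chromosome 7 bin and 275 in the upper chromosome 10 bin. The chromosome 13 bin was thus no longer the narrowest.

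The share of short regions also differed among the bins. Regions of 200 bases or less made up 39 of 64 (60.9%) in the chromosome 13 bin, 37 of 72 (51.4%) in the lower chromosome 10 bin, 36 of 79 (45.6%) in the chromosome 7 bin and 22 of 71 (31.0%) in the upper chromosome 10 bin. The share in the other autosomal regions was 49.3%. Regions over 500 bases numbered 12 in the upper chromosome 10 bin, 9 in the lower one and 6 in each of the other bins, or 11.5% of the 286 regions, against 11.6% elsewhere on autosomes. These 4 bins, pooled, thus had nearly the same share of long regions as the rest. Within each bin widths spread broadly, with means of 334 ± 207 bases (SD over 71 regions) in the upper chromosome 10 bin and 263 ± 208 bases (SD over 64 regions) in the chromosome 13 bin.

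**Figure D2:**
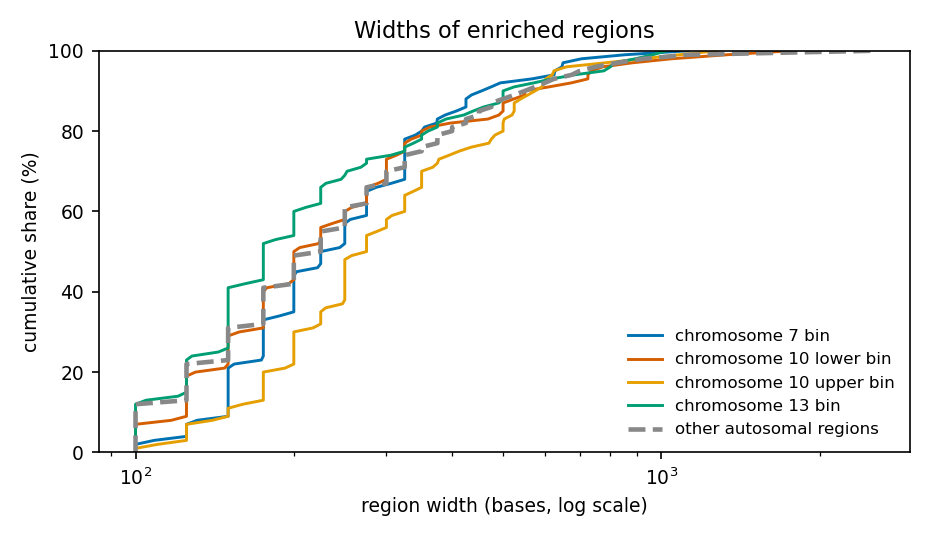
Cumulative share of regions (y axis, %) by width (x axis, bases, log scale) in each of the 4 bins and, dashed, in the other autosomal regions. The curve of the chromosome 13 bin (median 175 bases) lies close to the dashed curve (225 bases) in its lower part and left of it through the middle. The curve of the upper chromosome 10 bin (275 bases) runs right of the dashed curve up to the wide regions. All curves converge for wide regions.

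Each bin had 1 or 2 regions over 1000 bases. The widest of all ran on chromosome 10 from 79593226 to 79595000, a width of 1775 bases that the list cut into 9 peaks. Among the 876 other bins with at least 10 regions, 21 had a wider region. The second region over 1000 bases in the lower bin was 1150 bases wide, from 79775776 to 79776925. In the upper bin the widest region ran from 80780576 to 80781850 (1275 bases), and a region of exactly 1000 bases, from 80297701 to 80298700, came next. The widest region of the chromosome 7 bin ran from 134415826 to 134416950 (1125 bases), and that of the chromosome 13 bin from 67768551 to 67769575 (1025 bases). The chromosome 13 region opens a locus of 5 regions, whereas the upper chromosome 10 region has 1 partner, 6600 bases away.

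Along the bins the regions were spread widely. In the chromosome 7 bin, the upper chromosome 10 bin and the chromosome 13 bin, all 10 windows of 100 kb held at least 1 region, and in the lower chromosome 10 bin 9 of 10 did. The fullest window held 12 of 79 regions (15.2%) on chromosome 7 and 12 of 71 (16.9%) in the upper chromosome 10 bin. In the 46 other dense bins that share ran from 17.5% to 46.3%, with a median of 24.9%. Both values were thus lower than in any of the 46, although a bin with more regions tends to a lower share. In the lower chromosome 10 bin the fullest window, from 79700001 to 79800000, held 15 regions (20.8%) and 5500 covered bases. The window from 79900001 to 80000000 held 0 regions, and it belongs to a gap of 139 kb that separates both chromosome 10 bins.

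In the chromosome 13 bin the windows from 67500001 to 67900000 held 10, 13, 10 and 10 regions, while the windows from 67200001 and from 67400001 held 1 region each. The fullest, from 67600001 to 67700000, had 4350 covered bases. On chromosome 7 the emptiest window, from 134200001, held 1 region of 175 bases, and windows of 12 regions lay at 134300001 and at 134500001. In the upper chromosome 10 bin the emptiest window, from 80500001, held 2 regions and the next one, from 80600001, held 12.

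**Figure D3:**
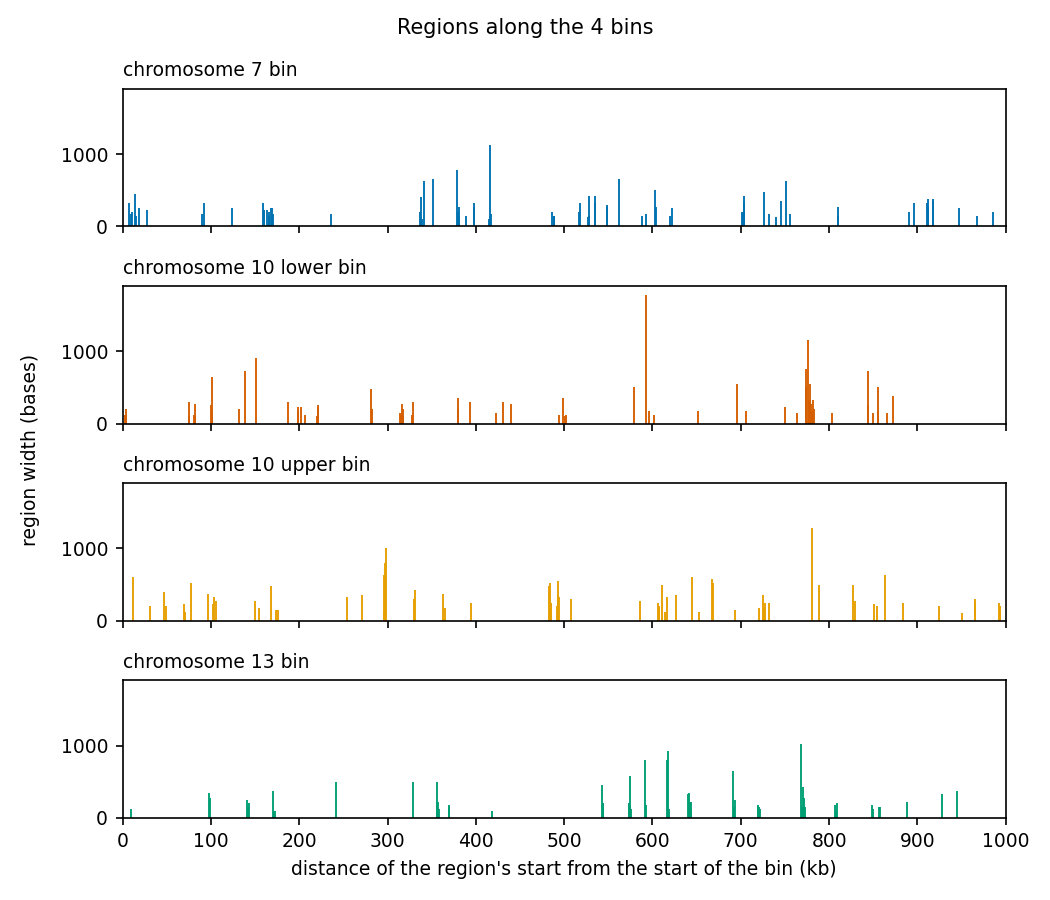
Regions along the 4 bins. Each vertical line is 1 region, placed by the distance of its start from the start of the bin (x axis, kb), and its height is the region's width (y axis, bases). Lines stand in tight, separate groups in the chromosome 13 bin and are more evenly strewn in the upper chromosome 10 bin. The tallest line is the region of 1775 bases in the lower chromosome 10 bin.

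Spacing follows in part from the count that chose the bins, and it still differed among them. The median distance from a region to its nearest neighbour was 238 bases in the chromosome 13 bin, 500 in the lower chromosome 10 bin, 525 in the chromosome 7 bin and 1900 in the upper chromosome 10 bin, against 900 over the other autosomal regions. At the upper quartile the order changed, with 5988 bases in the upper chromosome 10 bin against 11650 over the other autosomal regions. A neighbour within 1 kb was present for 54 of 64 regions in the chromosome 13 bin, or 84.4% (exact binomial 95% interval 73.1 to 92.2). The share was 65.3% (53.1 to 76.1) in the lower chromosome 10 bin, 64.6% (53.0 to 75.0) in the chromosome 7 bin and 45.1% (33.2 to 57.3) in the upper chromosome 10 bin. These intervals cover counting error only, and neighbouring regions are not independent. Having a close neighbour is mutual, so regions count in pairs and the intervals do not test the differences between bins. With regions narrower than the median of all regions dropped, the share was 52.0% on chromosome 13 and 48.8% on chromosome 7. It was 37.1% in the lower and 38.8% in the upper chromosome 10 bin. Most of the lead of chromosome 13 over the chromosome 7 and upper chromosome 10 bins was then gone. Most of its lead over the lower chromosome 10 bin remained.

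Among dense bins the chromosome 13 bin was near the top and the upper chromosome 10 bin near the bottom of this range. The share within 1 kb in the 46 other dense bins had a median of 59.0%, and 1 of them was above the chromosome 13 bin while 6 were below the upper chromosome 10 bin. Regions with no other within 10 kb numbered 6 on chromosome 7, 9 and 11 in the lower and upper chromosome 10 bins and 7 on chromosome 13. They made up 11.5% of the 286 regions, against 26.4% of the other autosomal regions, a share that density itself lowers. The most isolated region of the 4 bins, of 125 bases on chromosome 13 from 67009051 to 67009175, had its nearest neighbour 88775 bases away. On chromosome 7 it was a region of 175 bases from 134235951, 66025 bases from any other. In the lower chromosome 10 bin it was one of 175 bases from 79651951, at 43125 bases, and in the upper bin one of 250 bases from 80394576, at 29475 bases. The closest neighbours were 25 bases apart, 1 step of the grid. That distance was shared by 4 regions in the chromosome 13 bin, 3 in the lower chromosome 10 bin and 2 in each of the other bins.

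Steps from one region to the next fell into separate classes on chromosome 13 and ran together in the other chosen bins. Of the 63 steps in the chromosome 13 bin, 37 were of 1 kb or less, 21 were over 10 kb, and 5 lay between. Only 1 of those 5 was over 2 kb. The chromosome 7 bin had 24 of 78 steps between 1 and 10 kb, the lower chromosome 10 bin 19 of 71 and the upper chromosome 10 bin 21 of 70, and of these 22, 15 and 17 were over 2 kb. Regions on chromosome 13 thus lay either very close together or far apart. The other autosomal regions had 7051 steps of 1 kb or less, 4134 between 1 and 10 kb and 11176 over 10 kb. Few steps of the middle class were also found in other dense bins. They made up 4 of 51 steps on chromosome 17 from 33000001. On chromosome 7 they were 3 of 40 from 17000001 and 7 of 58 from 30000001.

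**Figure D4:**
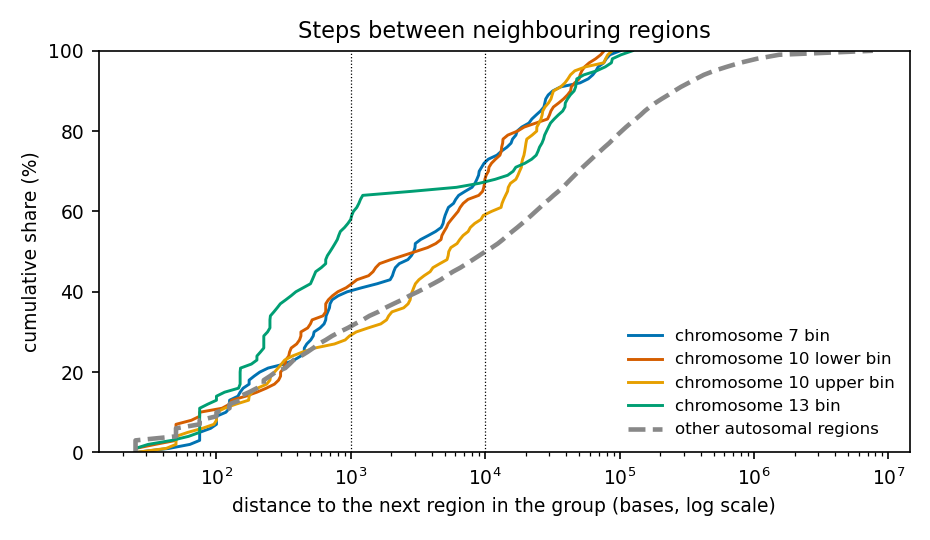
Cumulative share of steps (y axis, %) by the distance from a region to the next one (x axis, bases, log scale) in each bin and, dashed, over the other autosomal regions. Dotted lines mark 1 kb and 10 kb. The chromosome 13 curve climbs steeply below 1 kb and is nearly flat between the dotted lines, where 5 of its 63 steps lie, while the other curves keep rising.

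Neighbouring regions with at most 10 kb between them were grouped as a locus, which is defined by distance alone and need not match a gene. The upper chromosome 10 bin had 29 loci, the lower chromosome 10 bin and the chromosome 7 bin 23 each, and the chromosome 13 bin 22. No other autosomal bin had as many loci as the upper chromosome 10 bin, and the highest of them had 27. The number of loci follows in part from the count that chose the bins. The upper chromosome 10 bin had 2.45 regions per locus, with 11 single regions and 9 pairs among its loci. Its 9 loci of 3 or more regions held 42 of its 71 regions. Fewer loci with 3.43 regions each made up the chromosome 7 bin. Over the other autosomal regions the mean was 2.00 regions per locus. None of the 97 loci crossed a bin border.

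The loci of 3 or more regions were shorter in the chromosome 13 bin at this link distance. It had 12 of them, with a median span of 2.52 kb, and 11 of the 12 were shorter than 5 kb. The lower chromosome 10 bin also had 12, with a median span of 8.39 kb and 4 shorter than 5 kb. The chromosome 7 bin had 11 with a median span of 11.3 kb, and the upper chromosome 10 bin had 9 with a median of 9.20 kb. With so few loci the medians are loose. Their exact binomial 95% intervals ran from 1.95 to 3.38 kb on chromosome 13 and from 1.77 to 21.1 kb on chromosome 7. In the lower chromosome 10 bin the interval was 1.85 to 17.3 kb, and in the upper one 2.92 to 13.2 kb. Each of these reaches into that of chromosome 13. The intervals treat the loci of a bin as independent, so they do not test the differences between bins. The 46 other dense bins had a median of 7.03 kb, and 5 of them had shorter loci than the chromosome 13 bin. Covered bases filled 35.8% of the summed span of these loci on chromosome 13, against 13.4% on chromosome 7 and 13.9% and 15.5% in the lower and upper chromosome 10 bins. In the other dense bins the median was 16.7%, and 3 were above the chromosome 13 bin. The span depends on the link distance. With links of 5 kb the medians came to 2.50 kb on chromosome 13, 2.59 kb on chromosome 7, and 2.73 and 2.92 kb in the lower and upper chromosome 10 bins, so the difference in span was lost. With links of 20 kb the span was 2.84 kb on chromosome 13 and 19.4 to 24.98 kb in the other 3 bins.

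A measure of the steps inside loci kept the order at each link distance. With links of 10 kb, steps of 1 kb or less made up 88.1% of the 42 steps inside loci on chromosome 13 (exact binomial 95% interval 74.4 to 96.0). The share was 61.2% in the lower chromosome 10 bin (46.2 to 74.8), 57.1% in the chromosome 7 bin (43.2 to 70.3) and 50.0% in the upper chromosome 10 bin (34.2 to 65.8). These intervals cover counting error only. Steps of the same locus are not independent, so the intervals do not test the differences between bins. The alternatives for this share were added after the data were seen. With links of 5 kb and 20 kb it was 90.2% and 82.2% on chromosome 13, and the highest value of the other 3 bins was 76.9% and 52.6%. With regions narrower than the median dropped it was 77.8% on chromosome 13 and 69.2% in the lower chromosome 10 bin, the next highest. Of the 46 other dense bins, 2 had a higher share than the chromosome 13 bin with links of 10 kb, 2 with 5 kb and 0 with 20 kb. Dense bins with comparably compact loci were found on chromosome 17 from 33000001 (88.2% short steps, median span 2.09 kb) and on chromosome 7 from 17000001 (89.3%, 2.70 kb) and from 30000001 (82.1%, 2.48 kb). The chromosome 13 bin was therefore near the end of a range and not alone in it.

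**Figure D5:**
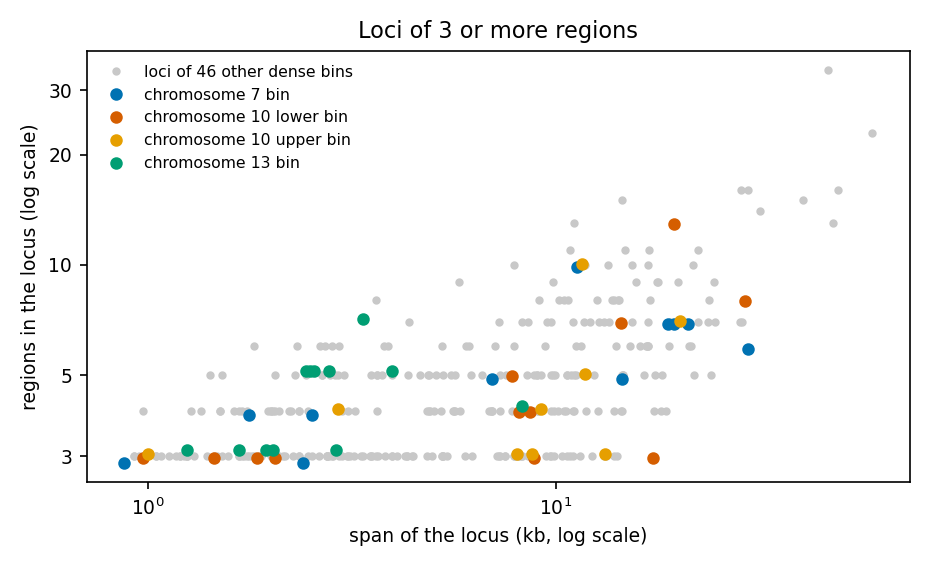
Loci of 3 or more regions, by span (x axis, kb, log scale) and number of regions (y axis, log scale), with regions linked up to 10 kb. Coloured points are loci of the 4 bins, shifted slightly in height so that equal counts stay visible, and grey points are loci of 46 other dense bins. The chromosome 13 loci, with 1 exception at 8.28 kb, lie below 5 kb. In the chromosome 7, lower and upper chromosome 10 bins 4, 4 and 2 loci also lie below 5 kb, and the others reach up to 29.6 kb.

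Within the chromosome 13 bin, the locus with the most regions, from 67640201 to 67643575, held 7 regions with 1450 covered bases. Its regions were 325, 350, 125, 100, 225, 225 and 100 bases wide in order, with none over 350 bases. Loci of 5 regions numbered 5 and spanned 2.45 to 3.98 kb. Of these, the one from 67768551 to 67772525 covered the most, 2025 bases. Its widths were 1025, 150, 425, 275 and 150 bases, so the widest region was the first of the row. In the locus from 67573326 to 67575775 the widths were 175, 200, 150, 575 and 125 bases and the widest was the fourth, so the order of widths was not shared. The starts of successive loci of 3 or more regions lay 42.0 kb apart in the median (23.4 to 187 kb), against 71.8 kb in the lower chromosome 10 bin, 77.3 kb on chromosome 7 and 126.1 kb in the upper chromosome 10 bin. The exception to the compact form was a locus of 4 narrow regions from 67849051 to 67857325, which has 1 step of 6525 bases.

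In the lower chromosome 10 bin a single locus stood out. It ran from 79763776 to 79783275 and held 13 regions with 5100 covered bases, 23.6% of the covered bases of its bin. The first region stood 9875 bases apart from the rest. The following 3 were 500, 750 and 1150 bases wide and lay 75 and 650 bases apart. A locus of 8 regions from 79843751 to 79872850 and one of 7 regions from 79314176 to 79328625 came next, with 2475 and 1275 covered bases. These 3 loci held 28 of the 72 regions (38.9%), the highest such share of the 4 bins, against 26.6% on chromosome 13.

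The upper chromosome 10 bin had its largest locus from 80482701 to 80494300, with 10 regions and 3325 covered bases in 11.6 kb. A run of 6 regions was followed, after 6275 bases, by a region of 200 bases and, after a further 1150 bases, by 3 more. Loci of 7 regions from 80606701 to 80626900 and of 5 regions from 80720051 to 80731825 followed. The most filled locus of 3 or more regions in this bin was chosen after its values were seen. It ran from 80295776 to 80298700, and its 4 regions covered 2550 of 2925 bases (87.2%), the longest gap being 200 bases.

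On chromosome 7 the largest locus, from 134158651 to 134169925, held 10 regions of 125 to 325 bases, with 2150 covered bases in 11.3 kb. None of its regions was thus wider than 325 bases, whereas the lower chromosome 10 locus of 13 regions included one of 1150 bases. Loci of 7 regions numbered 3. In order of covered bases they ran from 134378826 to 134398325 (2125 bases), from 134516826 to 134535725 (1975 bases) and from 134007101 to 134028200 (1775 bases). With this tie broken by covered bases, the top 3 loci held 24 of 79 regions (30.4%). The widest region of the bin lay outside them, in a locus of 4 regions from 134415426 to 134417200 that was 87.3% covered, again chosen after its values were seen. Whether crowding in any of the 4 bins reflects the number of genes, their expression or their methylation cannot be told apart in a list of positions.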

How the data were processed

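The 3 MeRIP and 3 input libraries share 1 deposited list of peak positions with 3 columns, chromosome, start and end. The submitters' processing notes name BWA 0.6.2-r126, SAMtools 0.1.18 and the build mm9. Neither the peak caller, nor its threshold, nor the pooling of libraries is given in the sources used here. Touching peaks were joined into regions, and regions with gaps of at most 10 kb formed loci. Each region was assigned to a 1-Mb bin by its start, and a locus was counted whole in every bin that held a region of it. Bins ran from the first to the last bin with a region on each of 19 autosomes, 2415 in all. Medians of a bin were ranked among bins with at least 10 regions, and loci of 3 or more regions and steps inside loci in dense bins with at least 40. Intervals of shares are exact Clopper-Pearson intervals, and those of median spans run between ordered values picked by the binomial distribution. Coordinates count from 1. Joining, distances and linking were tested on simulated data. The software was matplotlib 3.10.9, scipy 1.17.1, pandas 2.3.3 and numpy 2.4.6 under Python 3.11.15.

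No test was made, since the list has no value per library and the bins were chosen by count. The bins, gene lists and measures were chosen with earlier results of these data known. In each bin the rule named the widest region, the closest and most isolated regions, the 3 loci with the most regions, and the emptiest and fullest windows of 100 kb, and outside them the 5 bins next in count. Gene placement and motif content were not analysed here, for want of mm9 sequence and annotation. The zinc finger list was matched by symbol alone, and the other gene lists are not reported here.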

Additional observations from a re-analysis of the deposited data

How the results depend on the processing

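No paired analysis was possible because the positions are common to all libraries, which also means that leaving out a library could not be tried. Gene and motif alternatives were not run. Of 116 recomputed values, 84 stayed within 1.5 times the count or within the 95% interval. The 84 include 4 values of covered bases clipped at bin borders, which could not change because no region crossed a border. They also include 4 ranks among bins with a region, which leaving out empty bins could hardly change. Because many of the intervals are wide, staying within them does not mean that a value was unchanged. Values below are in the order chromosome 7, lower chromosome 10, upper chromosome 10, chromosome 13. Counting peaks gave 142, 135, 147 and 108. By that count 1, 2, 1 and 6 of the 2411 other autosomal bins were higher, so the chromosome 13 bin ranked lower than by regions. With regions narrower than the median dropped, there remained 43, 35 and 25 regions (chromosome 7, lower chromosome 10, chromosome 13), by construction. It put median widths at 325, 325, 350 and 375 bases and the chromosome 13 cover at 11200 bases. The share within 1 kb then became 48.8% on chromosome 7, 37.1% and 38.8% in the lower and upper chromosome 10 bins and 52.0% on chromosome 13. Shifting borders by 500 kb gave 52 regions on chromosome 7, 46 below the lower and 40 above the upper chromosome 10 bin, and 19 on chromosome 13. The share within 500 bases was 46.8% on chromosome 7 and 64.1% on chromosome 13, and within 5000 bases it was 83.5% on chromosome 7 and 70.4% in the upper chromosome 10 bin. Links of 20 kb gave 15 and 18 loci in the lower and upper chromosome 10 bins, and median spans of 19.4 and 24.98 kb. Links of 5 kb gave 76.9% short steps in the lower chromosome 10 bin, and they ended the difference in span between bins (2.59, 2.73, 2.92 and 2.50 kb), although these values stayed within the wide intervals of the medians. Without the chromosome 18 bin, 100% of the other bins had fewer regions than each of the 4, which the choice of the bins fixed in advance. Joining peaks within 100 bases moved none of the values past those limits, but the chromosome 13 median width rose from 175 to 225 bases. The alternatives for steps inside loci and for the span of loci were added after the data were seen.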
